A study of Mus musculus with 16 samples.

Results

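Livers of high-fat diet (HFD) mice given nicotinamide mononucleotide (NMN) were compared with livers of HFD mice without it. The comparison rested on the 8 arrays of 1 chip (chip B), 4 of HFD mice that received NMN intraperitoneally for 7 days and 4 of HFD mice with no NMN, out of 16 arrays in the series. All mice were female C57BL/6J animals, all 8 of this comparison ate the high-fat diet, and total RNA came from frozen whole liver. The other chip (chip A) held 4 arrays of chow-fed mice and a further array of each of the same 4 HFD mice, as the animal numbers in the column names of the signal table show, so that the series holds 12 mice. On chip B the first part of that number was 11 for HFD mouse 1 and NMN mice 2 to 4. It was 14 for HFD mice 2 to 4 and 15 for NMN mouse 1. What it marks is not stated, and it can be told apart from NMN only through HFD mouse 1. The age of the mice, the fat content and length of the diet, the dose of NMN, the hour of dissection and whether the HFD mice were given sham injections were not stated in the labels. The RNA was hybridised to Illumina bead arrays of 1 colour, and a value below is a normalized log2 intensity unless another scale is named. A gene was tested when its probe had a detection p under 0.01 on at least 4 of the 16 arrays, which 6559 genes met.

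NMN is made from nicotinamide by the enzyme NAMPT and is turned into the coenzyme NAD by the NMNAT enzymes. NAD carries electrons in fuel oxidation and is consumed by sirtuin deacetylases, by poly(ADP-ribose) polymerases and by glycohydrolases. In liver these reactions meet the circadian clock, since NAMPT is a clock-driven gene and SIRT1 acts on clock proteins, and they meet the fasting programme of glucose output and fat oxidation.

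The arrays of the groups overlapped in quality measures. NMN arrays had 9770 to 10246 detected probes, against 9473 to 10250 on HFD arrays (exact two-sided permutation p = 0.486, 4 against 4). With so few arrays, this test cannot show that the groups were alike. The mean signal over all probes was 202.1 on every array as deposited, so it cannot compare their quality. Its ratio to the background signal was 5.57 to 5.81 on NMN arrays and 5.18 to 6.63 on HFD arrays. HFD mouse 3 had the lowest ratio on chip B and HFD mouse 2 the highest. Hepatocyte genes were high, as the liver label implies. Apoa1, the main protein of high-density lipoprotein, averaged 13.87 ± 0.10 in NMN livers and 13.96 ± 0.04 in HFD livers (SD, n = 4 each), near the top of the scale. The Alb probe was dim, with 5.87 ± 0.26 in NMN livers and 6.12 ± 0.18 in HFD livers, and is not used below as a measure of albumin. The summed linear signal of 11 hepatocyte genes was 73250 to 79470 in NMN livers and 76600 to 81650 in HFD livers. In whole liver, fewer cells of a type and less RNA per cell cannot be told apart.

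No gene passed the test after adjustment over all 6559 genes (0 called, 0% of those tested, limma with Benjamini-Hochberg adjustment at 0.05), and the lowest adjusted p was 0.215. An unadjusted p under 0.05 was reached by 610 genes (9.3%), 301 higher (4.59%) and 309 lower (4.71%) in NMN livers. All NMN arrays lay above all HFD arrays for 158 genes (2.41%) and below them for 163 genes (2.49%). Of all tested genes, 3213 (49%) had a positive difference. The median absolute difference of group means was 0.09, while the median SD between single mice was 0.14 in NMN livers and 0.15 in HFD livers. A mean of 4 mice varies less than 1 mouse, so these values do not test whether a typical difference exceeds the spread between mice. Differences over 1 on the log2 scale were measured for 31 genes. Since 0 genes passed, every direction given below is a measured difference of 4 against 4 mice and not a call. The p-values and SE rest on the spread between mice within groups, pooled over these mice and the 4 chow mice of chip A. With only the 8 arrays of chip B in the fit, 0 genes passed and 567 had an unadjusted p under 0.05.

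**Figure D1:**
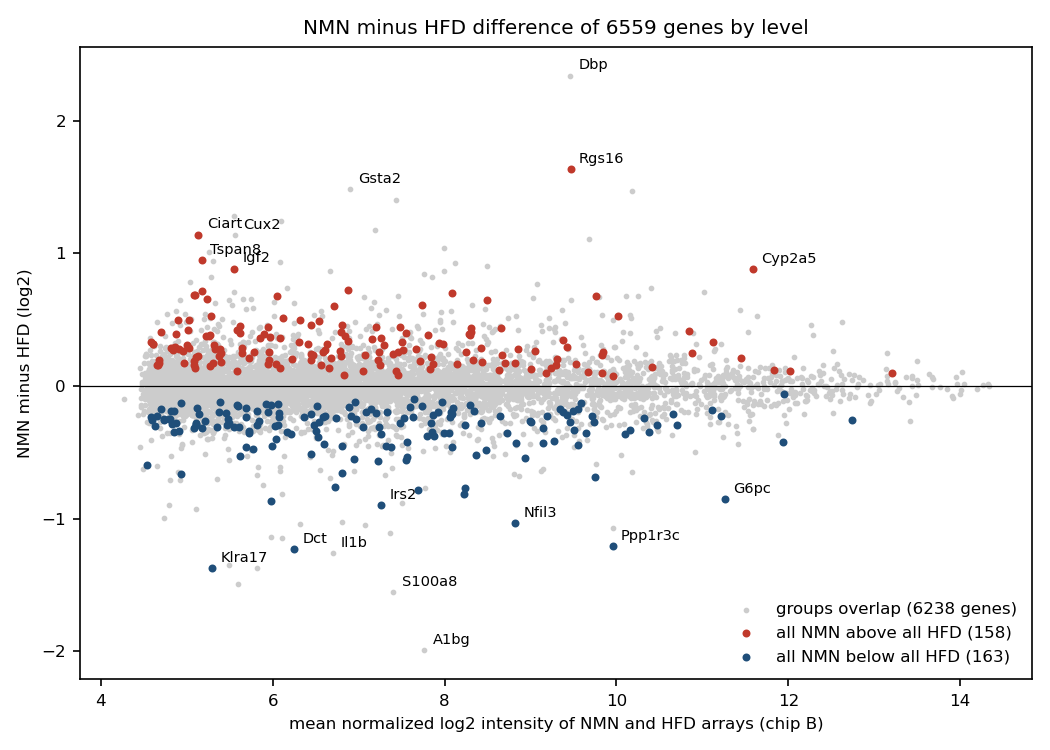
NMN minus HFD difference (log2, vertical axis) of the 6559 tested genes against their mean normalized log2 intensity on the 8 arrays (horizontal axis). Red points are the 158 genes with all NMN arrays above all HFD arrays, blue points the 163 genes with all NMN arrays below, and grey points the genes whose groups overlap. The cloud is centred on 0, and Dbp at 2.34 and A1bg at -1.99 are its extremes, both with overlapping groups.

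The genes with the smallest p were spread over many functions. Tspan8, a tetraspanin of the cell surface, read 5.55, 5.63, 5.99 and 5.43 in NMN mice 1 to 4, against 5.19, 4.6, 4.39 and 4.63 in HFD mice 1 to 4. Its groups did not overlap, with HFD mouse 1 the nearest to the NMN mice, and the difference was 0.95 (SE 0.17, adjusted p = 0.215). Tspan8 passed its background detection limit on 4 of 4 NMN arrays and 1 of 4 HFD arrays. Lrrc14b, detected on 4 NMN arrays and 2 HFD arrays, was higher by 0.69 (SE 0.12), Cyp2a5, a cytochrome P450 that hydroxylates coumarin, by 0.88 (SE 0.19) and Fkbp5, a glucocorticoid-induced co-chaperone, by 0.68 (SE 0.15), each with groups apart and an adjusted p of 0.215. Mlkl, the membrane-disrupting protein of necroptosis, was higher by 0.72 (SE 0.16, adjusted p = 0.223). On the lower side, Elovl2, an elongase of polyunsaturated fatty acids, differed by -0.65 (SE 0.12), Prodh2, hydroxyproline dehydrogenase, by -0.68 (SE 0.13), Hao1, the peroxisomal glycolate oxidase, by -0.34 (SE 0.07) and Adck5 by -0.76 (SE 0.16), all at an adjusted p of 0.215 with groups apart. Cyp2a5 has near-identical copies in the mouse genome, and whether its probe tells them apart was not tested.

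Among genes with groups apart, the largest difference was that of Rgs16, a brake on G protein signalling. Rgs16 read 10.21, 9.97, 10.63 and 10.34 in NMN mice 1 to 4, against 7.46, 9.11, 8.97 and 9.05 in HFD mice 1 to 4. HFD mouse 1 stood well below the other HFD mice, and the difference of 1.64 (SE 0.55, adjusted p = 0.416) was 1.24 without that mouse. Igf2, a fetal growth factor, was higher by 0.89 (SE 0.24), with NMN mouse 3 at 6.79 and the other NMN mice at 5.65 to 5.88, against 4.95 to 5.37 in HFD livers. Trem2, a receptor of lipid-handling macrophages, was higher by 0.69 (SE 0.19) and was detected on 4 NMN arrays and 2 HFD arrays. Klra17, a Ly49-family receptor gene, was at background on 3 of 4 NMN arrays, so that its difference of -1.37 (SE 0.32, adjusted p = 0.233) has no firm size. It read 4.44 to 4.84 in NMN livers, with 1 array detected, against 5.38, 7.12, 6.20 and 5.24 in HFD mice 1 to 4, and the difference was -0.70 when HFD mice 2 and 3 were both left out. Dct, dopachrome tautomerase of the melanin pathway, differed by -1.23 (SE 0.27) and Ces3b, a liver carboxylesterase, by -0.82 (SE 0.21).

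Clock genes and their outputs were among the largest differences, in opposite directions. Of 15 tested members of the clock list, 6 were higher and 3 lower in NMN livers at an unadjusted p under 0.05, against 4.59% and 4.71% of all genes, and 5 had groups apart, against 4.89% of all genes. The median difference of the list was 0.24, against -0.003 over all genes, and 0 members passed over all genes. Promoter windows of 3 members are shown because their letters hold the binding motifs that clock factors are known for, with the matches in capitals. They are the 250 bases before the RefSeq start on GRCm38.p6, for Per1 the first of its listed starts.
Ciart, chr3:95882229-95882478, minus strand: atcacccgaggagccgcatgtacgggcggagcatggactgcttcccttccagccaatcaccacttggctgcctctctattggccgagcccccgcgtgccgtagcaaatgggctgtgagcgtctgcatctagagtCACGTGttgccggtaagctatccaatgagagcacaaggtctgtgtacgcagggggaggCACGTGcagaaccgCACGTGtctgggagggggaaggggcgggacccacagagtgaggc
Per1, chr11:69098699-69098948, plus strand: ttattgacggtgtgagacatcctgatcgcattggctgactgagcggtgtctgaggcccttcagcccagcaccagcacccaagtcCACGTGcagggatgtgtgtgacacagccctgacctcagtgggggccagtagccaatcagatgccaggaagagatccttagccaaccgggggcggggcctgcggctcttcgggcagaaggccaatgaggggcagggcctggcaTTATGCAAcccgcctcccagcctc
Nfil3, chr13:52981040-52981289, minus strand: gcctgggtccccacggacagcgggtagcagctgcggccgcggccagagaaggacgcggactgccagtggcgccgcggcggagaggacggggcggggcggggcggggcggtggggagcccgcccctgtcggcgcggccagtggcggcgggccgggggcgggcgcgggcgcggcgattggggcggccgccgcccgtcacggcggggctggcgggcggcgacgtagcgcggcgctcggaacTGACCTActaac
The capitals in Ciart are 3 E-boxes (CACGTG), the motif of CLOCK and BMAL1. Those in Per1 are 1 E-box and 1 D-box (TTATGNAA), the motif of DBP, TEF and NFIL3. The capitals in Nfil3 mark a ROR element (TAGGTCA, here on the other strand), the motif of the ROR and REV-ERB receptors. Both strands were searched and the motifs do not overlap in these windows. An E-box stood in 6.02% of all 32851 RefSeq windows of this length, in 8.41% of those of tested genes and in 4 of 19 windows of clock genes. A D-box stood in 3.07% and a ROR element in 2.23% of all windows. The windows of Arntl, Dbp and Nr1d1 held no match to these letters.

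Of the genes above, Ciart, a repressor of CLOCK and BMAL1, read 6.34, 5.65, 5.30 and 5.53 in NMN mice 1 to 4, against 4.50, 4.23, 4.45 and 5.08 in HFD mice 1 to 4. Every NMN mouse lay above every HFD mouse, by 1.14 on average (SE 0.37, adjusted p = 0.393), and the probe was detected on 4 NMN arrays and 1 HFD array. Per1, a core repressor, read 6.21, 5.83, 5.70 and 6.12 in NMN mice and 5.39, 5.47, 5.45 and 5.92 in HFD mice, a difference of 0.41 (SE 0.16, adjusted p = 0.459). HFD mouse 4 lay within the NMN range. Nfil3, a repressor of D-box genes, ran the other way, with 7.94, 8.57, 8.35 and 8.34 in NMN mice 1 to 4 and 9.12, 9.67, 9.48 and 9.06 in HFD mice 1 to 4. The groups did not overlap, and the difference was -1.03 (SE 0.27, adjusted p = 0.267).

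Dbp, a D-box activator with a strong daily rhythm in liver, had the largest difference of any tested gene. It read 10.65, 10.96, 10.27 and 10.64 in NMN mice 1 to 4, against 8.82, 6.16, 7.37 and 10.82 in HFD mice 1 to 4. The NMN mice were close together, while the HFD mice spanned a wide range that reached into theirs through HFD mouse 4. The difference of 2.34 (SE 0.89, adjusted p = 0.458) was 3.18 without HFD mouse 4 and 0.81 without HFD mice 2 and 3. Bhlhe40, a repressor induced by the clock, differed by 0.65 (SE 0.16, adjusted p = 0.252) with groups apart, at 8.52 to 9.06 in NMN livers and 7.97 to 8.45 in HFD livers. Nr1d1, which encodes REV-ERB alpha, differed by 0.62 (SE 0.21, adjusted p = 0.399), with 6.37 to 6.81 in NMN livers and 5.52 to 6.44 in HFD livers.

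Arntl, which encodes BMAL1 and is repressed by REV-ERB alpha, read 4.54, 4.54, 4.68 and 4.65 in NMN mice 1 to 4 and 5.34, 5.48, 5.54 and 4.69 in HFD mice 1 to 4. All NMN mice were lower, HFD mouse 4 only just so, and the probe was detected on 1 NMN array and 3 HFD arrays (difference -0.66, SE 0.25, adjusted p = 0.458). HFD mouse 4 therefore lay nearest to, or within, the NMN range for Dbp, Per1, Ciart, Bhlhe40, Nfil3 and Arntl. The clock list's mean, with the HFD mean set to 0, was 0.41, 0.43, 0.19 and 0.40 in NMN mice 1 to 4, against -0.01, -0.34, -0.14 and 0.49 in HFD mice 1 to 4. Without HFD mouse 4 the list's median was 0.53. With HFD mice 2 and 3 both left out it was 0.02, and 1 member was higher and 1 lower at an unadjusted p under 0.05. Probes for Per2, Clock, Cry1 and Nr1d2 did not reach the detection rule.

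**Figure D2:**
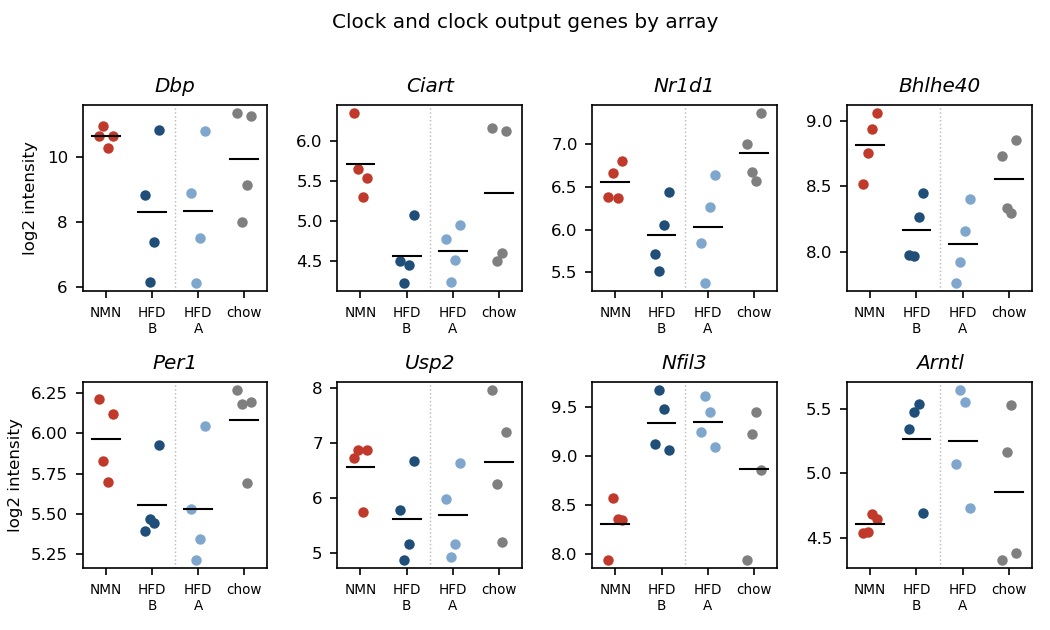
Normalized log2 intensity (vertical axes) of 8 clock and clock output genes on each array. Points are single mice, bars are group means, and HFD B and HFD A are arrays of the same 4 HFD mice on chip B and chip A. NMN mice lie close together for Dbp and Arntl, where HFD mouse 4 is the highest and the lowest HFD mouse on both chips.

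Chow mice on chip A spanned a wide range for the same genes. Dbp averaged 10.63 ± 0.28 in NMN livers, 8.29 ± 2.01 in HFD livers on chip B, 8.32 ± 2.0 in the HFD arrays of chip A and 9.93 ± 1.64 in chow livers (SD, n = 4 each). Nfil3 averaged 8.30 ± 0.26 in NMN livers, 9.33 ± 0.29 and 9.35 ± 0.23 in HFD livers on chips B and A, and 8.87 ± 0.67 in chow livers. The spread within chow was thus of the size of the differences between groups for both genes.

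Genes of glucose output and insulin signalling gave some of the clearest separations on the lower side. Irs2, the insulin receptor substrate of the fasted liver, read 6.35, 6.96, 6.72 and 7.22 in NMN mice 1 to 4, against 7.94, 7.86, 7.44 and 7.60 in HFD mice 1 to 4. No NMN mouse reached the lowest HFD mouse, and Irs2 was 1.86-fold lower in NMN livers (log2 difference -0.90, SE 0.17, adjusted p = 0.215). G6pc, glucose-6-phosphatase, the last step of glucose release, read 10.61, 10.67, 10.74 and 11.3405 in NMN mice and 11.55, 11.92, 11.46 and 11.85 in HFD mice (difference -0.85, SE 0.24, adjusted p = 0.295). NMN mouse 4 stood apart from the other NMN mice, just under the lowest HFD mouse. Ppp1r3c, a subunit that directs protein phosphatase 1 to glycogen, read 8.78, 9.35, 9.36 and 9.92 in NMN mice and 10.73, 10.54, 10.76 and 10.21 in HFD mice, a difference of -1.21 (SE 0.30, adjusted p = 0.263) with groups apart.

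In gluconeogenesis these were single genes. Of 13 tested genes of gluconeogenesis and glycogen, G6pc and Ppp1r3c were the 2 with an unadjusted p under 0.05, against 9.3% of all genes. In this list 7 differences were positive and 6 negative, and the median was 0.02. Pck1, the other control point of gluconeogenesis, differed by -0.35 (SE 0.22), with 4.97 to 5.86 in NMN livers and 5.30 to 6.26 in HFD livers. Of 9 insulin signalling genes 7 had a negative difference, and 4 were lower and 1 higher at that threshold, against 4.71% and 4.59% of all genes. Without NMN mouse 3, and likewise without HFD mouse 1, 1 was lower. Beside Irs2, the lower ones were Socs2, a growth hormone feedback inhibitor (-0.64, SE 0.27), Igfbp2, an IGF-binding protein (-0.51, SE 0.19) and Igf1, the growth hormone-driven growth factor (-0.29, SE 0.12). Foxo1, the transcription factor that insulin restrains, was the higher one (0.36, SE 0.15). All 4 of these had overlapping groups. Slc25a25, a mitochondrial ATP-Mg/phosphate carrier, read 7.58, 7.78, 7.72 and 8.34 in NMN mice and 8.85, 8.53, 8.62 and 8.50 in HFD mice. Its difference was -0.77 (SE 0.15, adjusted p = 0.215), and without NMN mouse 4 it passed the test, at -0.93 (adjusted p = 0.0261).

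Genes of fatty acid oxidation and PPAR alpha leaned lower, and those of fat synthesis leaned higher. In the oxidation list 21 of 23 tested members had a negative difference, where 49% of all genes had a positive one, with a median of -0.19, and 5 were lower and 0 higher at an unadjusted p under 0.05, against 4.71% and 4.59% of all genes. Pdk4, the kinase that shuts pyruvate out of oxidation in fasting, read 6.16, 6.09, 6.52 and 6.38 in NMN mice 1 to 4, against 8.04, 7.51, 7.34 and 6.37 in HFD mice 1 to 4. HFD mouse 4 was as low as the NMN mice, and HFD mouse 1 was the highest (difference -1.03, SE 0.32, adjusted p = 0.358). Ehhadh, the peroxisomal bifunctional enzyme, differed by -0.47 (SE 0.21), Crat, carnitine acetyltransferase, by -0.35 (SE 0.10), Bdh1, an enzyme of ketone bodies, by -0.32 (SE 0.14) and Acaa2, the mitochondrial thiolase, by -0.22 (SE 0.10). Ppara itself differed by -0.34 (SE 0.18), with all NMN mice at 5.42 to 5.65 below all HFD mice at 5.68 to 6.35.

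HFD mouse 1 weighed on both fat lists. With the HFD mean set to 0, the mean of the oxidation list was -0.17, -0.27, -0.37 and -0.15 in NMN mice 1 to 4, against 0.43, -0.33, -0.10 and -0.01 in HFD mice 1 to 4. The mean of the synthesis list was 0.06, 0.03, 0.57 and 0.39 in NMN mice, against -0.77, 0.27, 0.30 and 0.20 in HFD mice. Without HFD mouse 1 the median of the oxidation list was -0.09, with 15 of 23 negative and 2 lower at the threshold. That of the synthesis list was 0.002, against 0.34 with this mouse, and 2 members were higher and 3 lower. Without HFD mice 2 and 3, which leaves HFD mouse 1 as 1 of 2, the oxidation list had a median of -0.43 with 23 of 23 negative and 13 lower. The synthesis list had 9 members higher and 1 lower. Of all 6559 genes 583 reached the threshold in that fit, and 619 without HFD mouse 1. Cholesterol synthesis depended on the same mice, with a median of 0.31 over 17 genes. At the threshold 0 of them were higher and 1 lower, against 4.59% and 4.71% of all genes. Without HFD mouse 1 the median was -0.003, with 0 higher and 2 lower. Without HFD mice 2 and 3 it was 0.78, with 15 of 17 positive, 9 higher and 0 lower.

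In fat synthesis, 3 of 19 tested members were higher and 1 lower at an unadjusted p under 0.05, against 4.59% and 4.71% of all genes. Dgat2, which makes triglyceride, read 10.82, 10.98, 10.98 and 11.45 in NMN mice and 10.62, 10.57, 10.59 and 10.79 in HFD mice, with groups apart (difference 0.41, SE 0.12, adjusted p = 0.319). Scd2, a desaturase, was detected on all 4 NMN arrays and on 0 HFD arrays. Those NMN arrays alone met the detection rule, so its being higher there is in part fixed by that rule. In measured means it was at least 1.33-fold higher in NMN livers (adjusted p = 0.267). The bound sets each undetected array at no less than the lowest signal of any detected probe on it. It concerns the measured group means only, leaves out the spread between mice and is not a confidence limit. Fasn, fatty acid synthase, differed by 0.38 (SE 0.15) and was close to background, detected on 3 NMN arrays and 1 HFD array. Thrsp, a promoter of lipogenesis, read 10.89, 10.14, 11.60 and 11.03 in NMN mice and 6.69, 9.87, 10.47 and 10.74 in HFD mice, where HFD mouse 1 carried most of the difference of 1.47 (SE 0.70, adjusted p = 0.547). Elovl2, the lower one, read 6.22 to 6.70 in NMN livers and 7.02 to 7.37 in HFD livers.

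Cytosolic heat shock genes leaned higher in NMN livers. Of 12 tested members 11 had a positive difference, with a median of 0.40, and 7 were higher and 0 lower at an unadjusted p under 0.05, against 4.59% and 4.71% of all genes. The promoter window of Hspb1 is shown because it holds 2 copies of the core of the heat shock factor motif (GAANNTTC, in capitals), which stood in 6.69% of all windows. Of the 13 windows of this list 4 held the core, the others being those of Fkbp4, Hspd1 and Hspe1. The windows of Hsph1, Dnajb1, Stip1, Bag3, Chordc1 and Ahsa1 held no match to these letters. A longer heat shock element, which extends this core by a further GAA and was found in 0.466% of all windows, stood in Hspd1 and Hspe1. The windows that hold it overlap and share the same stretch, core included, on opposite strands, so it is 1 site and not 2.
Hspb1, chr5:135887669-135887918, plus strand: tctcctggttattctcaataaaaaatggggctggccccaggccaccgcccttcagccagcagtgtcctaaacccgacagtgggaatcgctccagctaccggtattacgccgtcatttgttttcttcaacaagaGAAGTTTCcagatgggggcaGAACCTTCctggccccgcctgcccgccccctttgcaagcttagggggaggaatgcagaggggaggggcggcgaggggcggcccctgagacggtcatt
Hspb1, a small heat shock protein, read 8.50, 8.52, 8.38 and 7.65 in NMN mice 1 to 4, against 7.99, 7.29, 7.33 and 7.15 in HFD mice 1 to 4. NMN mouse 4 and HFD mouse 1 overlapped, and the difference was 0.82 (SE 0.21, adjusted p = 0.267). Hsph1, a nucleotide exchange factor of HSP70, read 8.63, 8.33, 8.54 and 8.27 in NMN mice and 8.21, 7.27, 7.41 and 8.07 in HFD mice (difference 0.70, SE 0.26). Dnajb1, a co-chaperone of HSP70, read 10.60, 10.12, 10.39 and 10.01 in NMN mice and 9.95, 9.49, 9.64 and 9.93 in HFD mice (difference 0.53, SE 0.17). The groups of Hsph1 and Dnajb1 did not overlap, and HFD mice 2 and 3 were the lowest for both. Stip1, which links HSP70 and HSP90, was the third of the 3 with all NMN mice above all HFD mice (0.41, SE 0.12), against 2.41% of all genes, and Bag3 (0.47, SE 0.15), Chordc1 (0.42, SE 0.17) and Fkbp4 (0.40, SE 0.14) overlapped. The mitochondrial chaperones Hspd1 and Hspe1 differed by -0.02 and 0.07. Without HFD mice 2 and 3 the list's median was 0.22, and 2 members were higher at the threshold.

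Chaperones of the endoplasmic reticulum leaned the same way, by less. Of 17 tested members 16 had a positive difference, the median was 0.20, and 3 were higher at an unadjusted p under 0.05, against 4.59% of all genes. These were Herpud1, a protein of the degradation machinery (0.48, SE 0.18), Hsp90b1, the chaperone GRP94 (0.40, SE 0.13), and Pdia3, a disulfide isomerase (0.31, SE 0.14). Their groups overlapped. The list's mean, with the HFD mean set to 0, was 0.401, 0.055, 0.4 and 0.047 in NMN mice 1 to 4. In HFD mice 1 to 4 it was 0.234, -0.071, -0.107 and -0.056. At the threshold 1 member was higher without NMN mouse 1, and 8 were higher without HFD mouse 1.

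Genes of glutathione conjugation and other NRF2 targets were mostly higher in NMN livers. Of 32 tested members 28 had a positive difference, with a median of 0.16, and 10 were higher and 0 lower at an unadjusted p under 0.05, against 4.59% and 4.71% of all genes. Groups were apart for 4 members, all higher, against 2.41% of all genes. Gstp1, a pi-class transferase, read 10.39, 9.82, 10.60 and 9.59 in NMN mice 1 to 4, against 9.30, 9.53, 9.32 and 9.53 in HFD mice 1 to 4 (difference 0.68, SE 0.19, adjusted p = 0.289). Mgst3, a microsomal transferase, differed by 0.44 (SE 0.12), Gstm5 by 0.22 (SE 0.09) and Gsta3 by 0.10 (SE 0.07), the other members with groups apart. Gsta2, an alpha-class transferase, read 7.81, 6.63, 8.60 and 7.53 in NMN mice and 5.62, 5.46, 6.39 and 7.17 in HFD mice, the largest difference of the list at 1.48 (SE 0.40, adjusted p = 0.272). NMN mice 1 and 3 were the highest for both Gsta2 and Gstp1, and NMN mouse 2 lay inside the HFD range for Gsta2. Nqo1, a quinone reductase (0.53, SE 0.14), and Ephx1, microsomal epoxide hydrolase (0.53, SE 0.13), overlapped. Gsta1 and Gsta2 are near-identical genes, and whether their probes tell them apart was not tested.

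**Figure D3:**
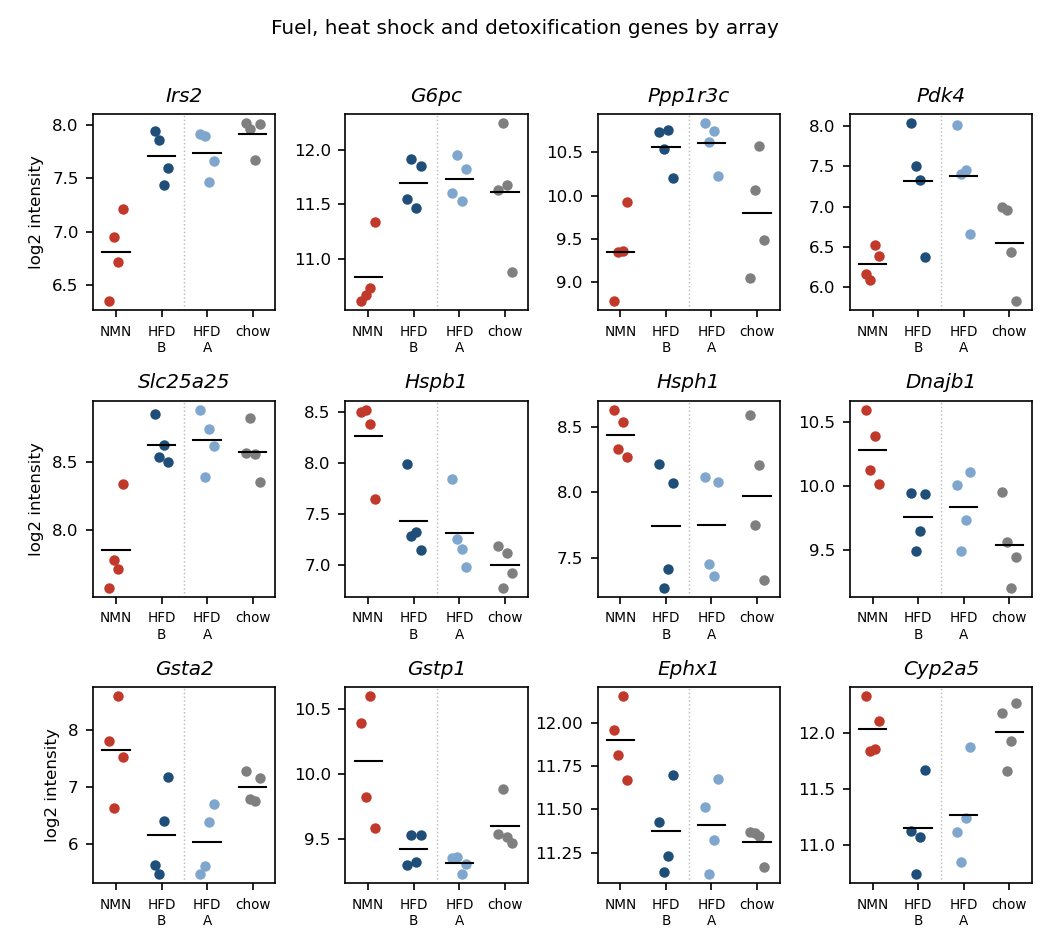
Normalized log2 intensity (vertical axes) of 12 genes of fuel handling, heat shock and detoxification on each array. Points are single mice, bars are group means, and HFD B and HFD A are arrays of the same 4 HFD mice on chip B and chip A. NMN mice lie below all HFD mice of chip B for Irs2, G6pc, Ppp1r3c and Slc25a25 and above them for Hsph1, Dnajb1, Gstp1 and Cyp2a5.

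Genes that make and use NAD differed little. Of 19 tested members of the NAD list, 2 were higher and 0 lower at an unadjusted p under 0.05, against 4.59% and 4.71% of all genes, and the median was 0.08. Nmnat1, the nuclear enzyme that turns NMN into NAD, differed by 0.10 (95% interval -0.12 to 0.31) and was near background. Nadk, which phosphorylates NAD, differed by 0.06 (95% interval -0.12 to 0.24), Nmrk1, nicotinamide riboside kinase, by 0.08 (95% interval -0.30 to 0.46) and Nnmt, which methylates nicotinamide, by -0.20 (95% interval -0.74 to 0.35). The 2 at the threshold were Parp3, a poly(ADP-ribose) polymerase, at 0.34 (SE 0.13), where NMN mouse 3 read 6.31 and the other NMN mice 5.85 to 5.86 against 5.46 to 5.88 in HFD livers, and Slc12a8, proposed in mouse as an NMN transporter, at 0.21 (SE 0.09). Their groups overlapped. Probes for Nampt and Nmnat3 were detected on 0 arrays, and Cd38 had no named probe.

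Among sirtuins, Sirt1 read 5.55, 5.80, 5.76 and 5.92 in NMN mice and 5.93, 5.97, 5.76 and 5.75 in HFD mice. The groups overlapped, and the difference was -0.10 (95% interval -0.38 to 0.19). Sirt3, the mitochondrial deacetylase, differed by -0.30 (SE 0.13, adjusted p = 0.486), and the other 3 tested sirtuins by -0.04 to 0.003. Of 63 genes of oxidative phosphorylation, 0 reached an unadjusted p under 0.05 in limma, their differences ran from -0.20 to 0.16, and the median was -0.004.

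Genes of neutrophils were high in HFD mice 2 and 3 and low in HFD mice 1 and 4 and in all NMN mice. The mean of 11 tested genes, with the HFD mean set to 0, was -0.40, -0.74, -0.80 and -0.96 in NMN mice 1 to 4, against -0.33, 0.85, 0.70 and -1.22 in HFD mice 1 to 4. The list's median difference was -0.71, and it was 0.08 without HFD mice 2 and 3. At an unadjusted p under 0.05, 5 members were lower, against 4.71% of all genes, and 0 had groups apart. With only the 8 arrays of chip B in the fit, and so no chow mice, 0 members were lower at that threshold. S100a8, a calprotectin subunit, read 7.44, 6.46, 6.44 and 6.17 in NMN mice and 7.16, 10.08, 9.85 and 5.64 in HFD mice. Mpo, myeloperoxidase, Camp, cathelicidin, and Ngp, a granule protein, were detected on 0 NMN arrays and on 2 HFD arrays each. They met the detection rule only through arrays of mice without NMN. Their being lower in NMN livers is thus in part fixed by that rule and lends no support. In measured means they were at least 1.45-, 1.46- and 1.38-fold lower in NMN livers by the bound used for Scd2 (adjusted p = 0.469, 0.511 and 0.466). Summed linear signal of the 11 genes was 1830 to 4078 in NMN livers and 1126 to 8048 in HFD livers.

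Il1b, interleukin-1 beta, was highest in the same 2 HFD mice. It read 6.35, 5.69, 6.33 and 5.89 in NMN mice and 6.63, 8.61, 7.78 and 6.29 in HFD mice, a difference of -1.26 (SE 0.41, adjusted p = 0.393) that was -0.39 without HFD mice 2 and 3. Il1a differed by -0.33 (SE 0.14), and Il1b and Il1a were the 2 of 20 inflammation genes at an unadjusted p under 0.05, both lower, against 4.71% of all genes. The part of the neutrophil signal in the Il1b difference was not tested. Markers of antigen-presenting cells were high in 1 NMN mouse. The mean of 7 MHC class II and dendritic cell genes was 0.41, 0.09, 1.15 and -0.15 in NMN mice and -0.16, 0.18, 0.27 and -0.28 in HFD mice, and the list's median of 0.54 was 0.16 without NMN mouse 3. Cd74, the invariant chain, read 10.25 in NMN mouse 3 and 8.69 to 9.48 in the other NMN mice, against 8.45 to 8.95 in HFD livers.

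Values of the other cell type lists follow. Of 13 tested Kupffer cell and macrophage genes 0 reached an unadjusted p under 0.05 in limma, with a median of -0.07 that depended on which mice were included. It was -0.32 without NMN mouse 1, with 13 of 13 lower and 2 at the threshold, and 0.36 without HFD mice 2 and 3, with 10 of 13 higher. The T cell receptor subunits Cd3d and Cd3e differed by 0.48 (SE 0.31) and 0.46 (SE 0.25) with overlapping groups. Cd3g, detected on 2 NMN arrays and 0 HFD arrays, was at least 1.12-fold higher in measured means (adjusted p = 0.549). Of these T cell genes 0 reached an unadjusted p under 0.05, so a true difference of 0 is within the spread between mice. The median of these 3 genes was 0.48, and 0.19 without NMN mouse 3. Cidec, a lipid droplet protein and the 1 tested member of the adipocyte list, differed by 0.63 (SE 0.48). Of 3 erythroid genes, Slc4a1, the anion exchanger of red cells, differed by -1.15 (SE 0.49) with overlapping groups and HFD mice 2 and 3 the highest, and the others by -0.02 and 0.06. Of 13 sinusoidal endothelial genes 11 were lower, with a median of -0.14, and 0 reached an unadjusted p under 0.05 in limma. With only the 8 arrays of chip B in the fit, 2 were lower at that threshold. Without HFD mice 2 and 3 the median of these endothelial genes was -0.02. Clec4g, a lectin of these cells (-0.22, SE 0.12), and Fcgr2b, an inhibitory antibody receptor (-0.23, SE 0.13), were lower with groups apart, against 2.49% of all genes. Of 12 stellate cell and fibroblast genes 10 were higher, with Timp1, an inhibitor of matrix proteases, at 1.01 (SE 0.29), detected on 4 NMN arrays and 2 HFD arrays. Of 11 hepatocyte genes 1 was lower at the threshold, against 4.71% of all genes. It was Apoh, with groups apart (-0.23, SE 0.08).

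**Figure D4:**
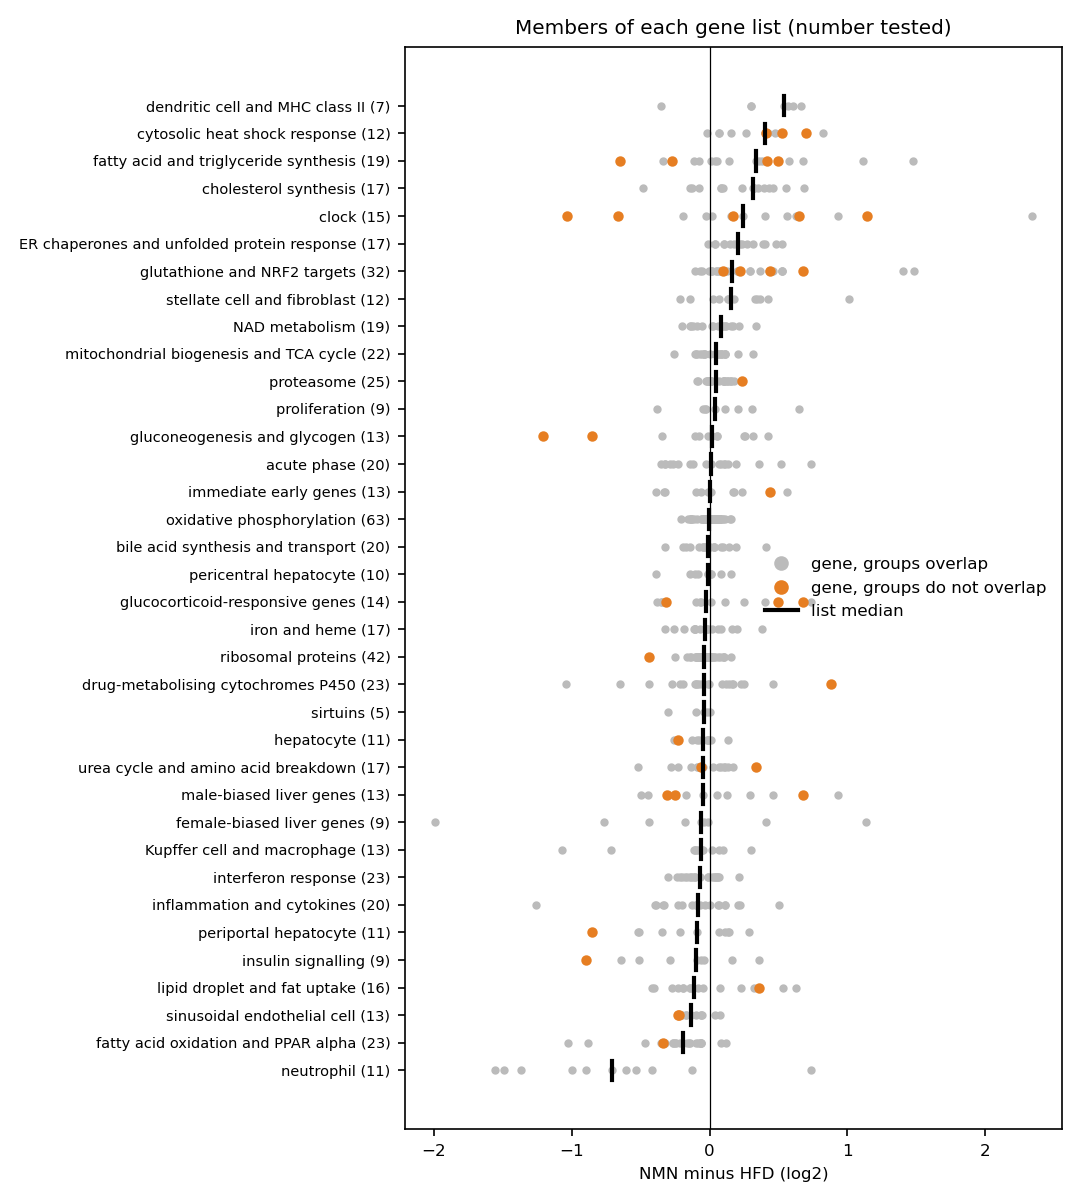
NMN minus HFD difference (log2, horizontal axis) of each tested member of the lists with at least 5 tested members, with the number tested in brackets. Orange points are genes whose groups do not overlap, grey points genes whose groups overlap, and black bars list medians. Medians run from -0.71 for neutrophil genes to 0.54 for the MHC class II list.

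**Figure D5:**
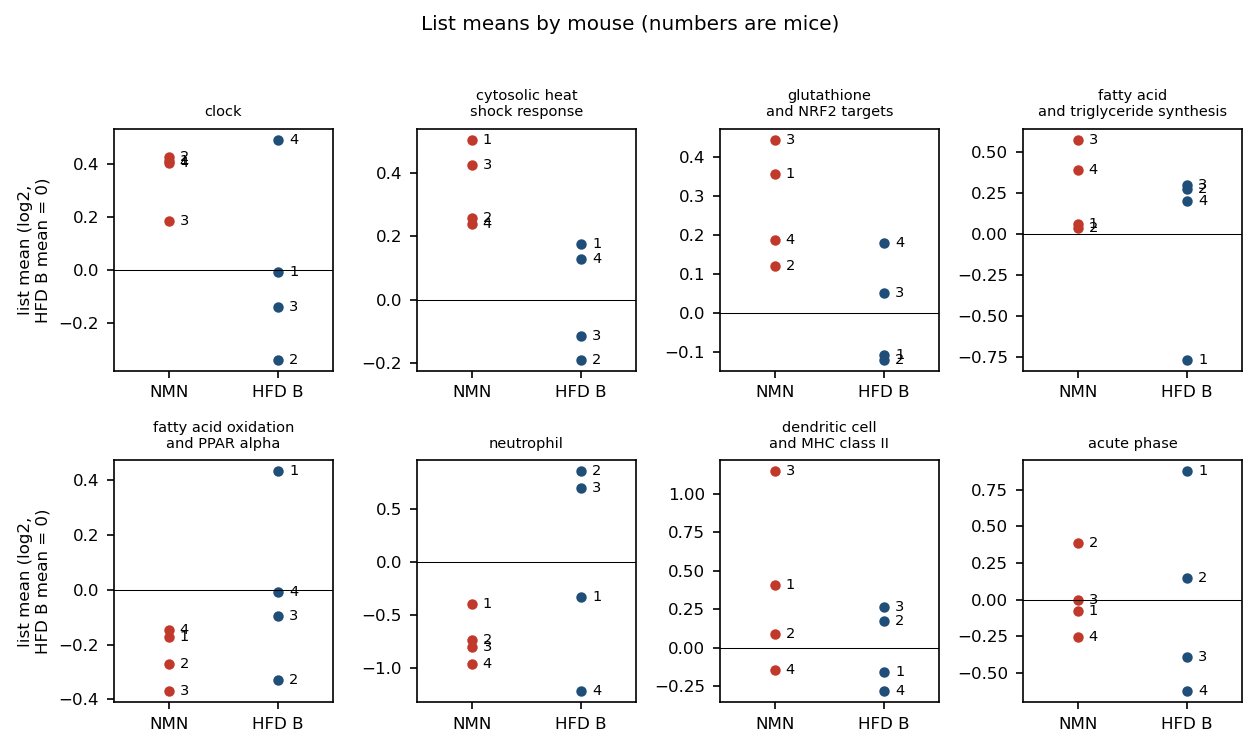
Mean of the members of 8 lists in each mouse (vertical axes, log2 with the HFD mean of chip B set to 0), with NMN mice left and HFD mice right and mouse numbers beside the points. HFD mouse 1 stands apart in fat synthesis, fat oxidation and acute phase genes, HFD mice 2 and 3 in neutrophil genes, and NMN mouse 3 in MHC class II genes.

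Genes that differ by sex in mouse liver and drug-metabolising genes differed singly. Of 9 tested female-biased genes, 3 were lower and 1 higher at an unadjusted p under 0.05, against 4.71% and 4.59% of all genes. A1bg, a secreted plasma protein gene, read 6.87, 6.62, 5.32 and 8.25 in NMN mice and 8.34, 9.28, 9.57 and 7.85 in HFD mice, a difference of -1.99 (SE 0.69, adjusted p = 0.423) with overlap through NMN mouse 4 and HFD mouse 4. Cux2, a repressor of male-biased genes in female liver, read 5.79, 6.31, 5.37 and 7.04 in NMN mice and 4.72, 4.91, 5.56 and 4.78 in HFD mice (difference 1.14, SE 0.31, adjusted p = 0.267). The 2 genes thus differed in opposite directions. Among male-biased genes, Bcl6, a repressor restrained by growth hormone, was higher by 0.93 (SE 0.35), while Mup20, a urinary protein, differed by -0.45 (SE 0.16). Of 23 drug-metabolising P450 genes, Cyp2a5 was the 1 that was higher at the threshold and Cyp2b10 (-1.04, SE 0.41) and Cyp2b9 (-0.44, SE 0.14) were lower, against 4.59% and 4.71% of all genes.

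Against the chow mice of chip A, the diet's own values can be set beside those of NMN, with the caution that both comparisons share the 4 HFD mice and that chow was on the other chip. Irs2 averaged 6.81 ± 0.37 in NMN livers and 7.71 ± 0.23 in HFD livers on chip B, and 7.73 ± 0.21 in HFD livers and 7.91 ± 0.16 in chow livers on chip A (SD, n = 4 each). Cyp2a5 averaged 12.03 ± 0.23 in NMN livers and 11.15 ± 0.39 in HFD livers on chip B, and 11.27 ± 0.44 in HFD livers and 12.01 ± 0.27 in chow livers on chip A. Il1b averaged 6.07 ± 0.33 in NMN livers and 7.33 ± 1.06 in HFD livers on chip B, and 7.5 ± 0.94 in HFD livers and 5.61 ± 0.44 in chow livers on chip A. Dct averaged 5.63 ± 0.54 in NMN livers and 6.86 ± 0.40 in HFD livers on chip B, and 6.91 ± 0.39 in HFD livers and 7.97 ± 0.39 in chow livers on chip A. The values of NMN livers thus stood on the chow side of HFD for Cyp2a5 and Il1b. For Dct and Irs2 they stood below both, on the far side of HFD from chow.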

How the data were processed

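Total liver RNA was measured on 16 single-colour Illumina MouseRef-8 arrays. The authors deposited an intensity per probe on a linear scale, with the same mean over all 25697 probes on every array, and no background had been subtracted from it. Each intensity has its own detection p-value, per the file headers. The authors also deposited a table of 18118 score values per array (z scores), used here only as an alternative. No source used here names the scanner software.

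Intensities were background-corrected, quantile normalized and put on a log2 scale by neqc (limma 3.58.1, R 4.3.3, offset 16, all 16 arrays), which draws differences of dim probes toward 0. Of 25697 probes, 10550 had a detection p under 0.01 on at least 4 arrays. The platform annotation gave 1 symbol to 16850 probes and none to 8847, 3914 of them detected. The brightest detected probe stood for each of 6559 genes. Limma was fitted to 12 arrays of 12 mice (chow, HFD on chip B and NMN), so chow mice entered the estimate of the spread, and two-sided p-values were given a Benjamini-Hochberg adjustment over all 6559 genes (threshold 0.05). The script was tested on simulated data. The 4 HFD arrays of chip A were described only.

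Animals and gene lists: the members and the 42 lists (908 genes) were chosen with earlier results of these data known, so no set test was run and lists are described by counts and medians. Named genes were the 10 with the smallest p in each direction, the 10 largest differences in each direction with groups apart, up to 4 members with the smallest p per list of at least 5, and genes fixed by name. Other genes in the text were chosen after their values were seen.

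Same-numbered NMN and HFD mice have different animal numbers, and their deviations correlated across genes at -0.115, -0.275, -0.005 and 0.328, so they were not paired. The number of arrays limits the precision. Promoter sequences are from RefSeq on GRCm38.p6. Alternatives were other sets of arrays, normalizations, offsets, detection filters, probe rules, array weights, the replicate block and each mouse left out, and 2 chosen after seeing the data: the first part of the animal number as a covariate, and HFD mice 2 and 3 left out together.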

Additional observations from a re-analysis of the deposited data

Results flagged for a closer look

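Among the named genes, 20 of 360 groups of 4 mice held 1 mouse far from the other 3, where chance gives about 1 in 20 groups. The level of that mouse is given for each, on the normalized log2 scale.

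In NMN livers, mouse 4 stood apart for Vasn (6.86, low), Hspb1 (7.65, low), Slc25a30 (5.22, low) and G6pc (11.3405, high). NMN mouse 3 stood apart for Prodh2 (9.06, low) and Parp3 (6.31, high), and NMN mouse 1 for Suclg1 (10.42), Camp (4.64) and Marco (5.31), all high. In HFD livers on chip B, mouse 1 stood apart for Adck5 (7.41, high), Rgs16 (7.46, low), Lrat (4.93, low), Plin4 (9.76, high) and Qprt (9.72, high). HFD mouse 2 stood apart for Dcn (9.30) and Slc40a1 (12.23), both high, and HFD mouse 3 for Psmb8 (5.81, high). HFD mouse 4 stood apart for Per1 (5.92, high), Foxo1 (7.04, high) and Lgr5 (4.85, low). Plin4, a lipid droplet coat protein, had the widest gap, with the other HFD mice at 6.69 to 7.07.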

How the results depend on the processing

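The count of 0 called genes was the same in 10 refits with other arrays, normalizations, filters or probe rules, with estimated array weights and in the z scores. With the replicate block it was also 0, with 661 genes at an unadjusted p under 0.05, so no paired call was gained. Leaving out 1 mouse gave 0 to 4. It was 2 without NMN mouse 4 (Prr15l higher, Slc25a25 lower) and 4 without HFD mouse 1 (Tspan8 and Lrrc14b higher, Hyi and Mme lower). Alternatives chosen after seeing the data gave 11 with the first part of the animal number as a covariate, among them Thrsp, Elovl6 and Rgs16 higher and Creb3l3 and Plin5 lower, and 1 without HFD mice 2 and 3 (Gpc1, lower). No source used here says what that number means. HFD mouse 1 was the only HFD mouse to share its first part with NMN mice, so it can be told apart from NMN only through that mouse. With this covariate the difference of each named gene equals NMN mice 2 to 4 minus HFD mouse 1 alone, so those calls rest on 1 HFD mouse. Of 96 named genes with a direction, 92 kept their sign in every alternative that gave them a value (22 or 23). A gene with groups apart keeps its sign whichever mice are left out. For genes named by that rule, this part of the agreement was fixed in advance. With the covariate Tm7sf2 was 0.17 and Pdia3 -0.070, and without HFD mice 2 and 3 Mpo was 0.012 and Camp 0.075, each opposite in sign. The cause was not tested. Of 965 list medians recomputed, 34 moved by more than the spread between mice. Signals not detected on at least 2 arrays of a group limit, among others, Mpo, Camp, Ngp, Scd2, Fasn, Arntl, Tspan8, Ciart, Klra17, Lrrc14b, Timp1, Trem2 and the T cell genes.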

Other observations

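A few gene groups not described above held single genes with groups apart, as did 4.89% of all genes. Among 13 tested immediate early genes, Zfp36, which destabilises cytokine mRNA, was higher in NMN livers by 0.44 (SE 0.12), while Fos differed by -0.39 (SE 0.18) and Klf2 by -0.32 (SE 0.14) with overlapping groups. Among 14 glucocorticoid-responsive genes, Fkbp5 and Ddit4, an inhibitor of mTORC1 (0.50, SE 0.16), were higher with groups apart, and Sgk1, a serum- and glucocorticoid-induced kinase, was lower (-0.32, SE 0.14) with groups apart, so the list's median was -0.03. Among 42 ribosomal protein genes, Rps3a1 was lower (-0.44, SE 0.14) with groups apart. The same HFD mice differed by 0.42 between their arrays on chips B and A for Rps3a1, so its difference is about that between repeat arrays. In all, 30 of the 42 were lower, where 49% of all genes had a positive difference, with a median of -0.04. Plin3, a lipid droplet protein, was higher (0.36, SE 0.10) and Gpt2, an alanine aminotransferase, was higher (0.33, SE 0.09), both with groups apart. None of these genes passed after adjustment over all 6559 genes.

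Among 3914 detected probes without a gene symbol, 0 passed in limma. An unadjusted p under 0.05 was reached by 349 of them, and by 961 of all 10550 detected probes. In the acute phase list, whose median was 0.01, HFD mouse 1 stood at 0.88 and HFD mice 2 to 4 at 0.15, -0.40 and -0.63, with NMN mice 1 to 4 at -0.08, 0.39, -0.01 and -0.26.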
